A study of Mus musculus with 16 samples.

Results

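The comparison described here is that of liver miRNA levels with and without hepatocyte beta-catenin in mice that ate phenobarbital. It used 8 of the 16 arrays of the series, 4 titled CTNNB1KO_PB and 4 titled WT_PB, and all 611 features for mouse miRNAs among the 650 features of the deposited table. Of the 611, 77 came from hairpins that lie between Dlk1 and Dio3 on chromosome 12 in the RefSeq gene order, and 534 from elsewhere. The CTNNB1KO_PB group were male C3H mice whose Ctnnb1 gene, flanked by loxP sites, was cut by a Cre recombinase driven from the albumin promoter, fed 0.05% phenobarbital for 12 weeks. The WT_PB group were male C3H wild-type mice on the same diet. WT_H2O and CTNNB1KO_H2O, 4 arrays each, are the same genotypes without phenobarbital and served here to share the estimate of spread and to test whether the genotype difference depended on diet. The albumin promoter is described in the labels as specific to hepatocytes, loss of Ctnnb1 in other liver cells was not measured, and the labels used here give neither ages nor the Cre status of the wild-type mice. Nothing in them states that each array is a separate mouse, so p-values cover the spread between arrays, part of which may be technical.

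Beta-catenin is both a partner of cadherins at cell junctions and the co-activator through which Wnt signals reach TCF target genes, and in the liver it keeps the gene programme of the hepatocytes around the central vein. Phenobarbital activates the nuclear receptor CAR in hepatocytes, and mouse liver tumours that grow out under it commonly carry activated Ctnnb1. The region between Dlk1 and Dio3 is imprinted: its long non-coding RNAs Meg3, Rian and Mirg, and the miRNAs processed from them, are read from the maternal chromosome and are largely silent in adult liver. A miRNA guides Argonaute to its targets mainly through its seed, bases 2 to 8 counted from the 5′ end.

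Of the 23 miRNAs that differed between genotypes, the sequences shown first are those of the 11 Dlk1-Dio3 miRNAs that also stood above the dim floor in WT_PB, because they carry most of the finding. Capitals mark the seed, and lines follow the order along the chromosome from Dlk1 towards Dio3. Sequences are RefSeq mature miRNAs of build GRCm38.p6, to which the older names of the array, with an asterisk for the opposite arm of the hairpin, were paired by arm.
miR-127: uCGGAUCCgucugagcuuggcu
miR-434-3p: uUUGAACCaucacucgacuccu
miR-136: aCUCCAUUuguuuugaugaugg
miR-379: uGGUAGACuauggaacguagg
miR-299*: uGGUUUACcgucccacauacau
miR-376b: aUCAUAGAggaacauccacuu
miR-376a: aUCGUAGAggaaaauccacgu
miR-300: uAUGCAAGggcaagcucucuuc
miR-154: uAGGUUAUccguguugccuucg
miR-154*: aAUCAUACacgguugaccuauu
miR-377: aUCACACAaaggcaacuuuugu

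Outside the region, the miRNAs that passed the test and had a RefSeq entry are shown for their seeds, from chromosome 4 (miR-34a and miR-31*) and chromosome 11 (miR-142-5p and miR-144).
miR-34a: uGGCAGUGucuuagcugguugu
miR-31*: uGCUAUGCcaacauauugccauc
miR-142-5p: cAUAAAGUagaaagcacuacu
miR-144: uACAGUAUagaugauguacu

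The 18 region miRNAs that passed had 18 different seeds, so no seed was shared among them. For 2 pairs, miR-376b with miR-376a and miR-379 with miR-411, the seeds differed at 1 position. Their GC content lay between 36.4% and 59.1%, with a median of 44.7%, and their length between 21 and 25 bases. In the RefSeq table miR-379 shares its seed with miR-1193-5p, miR-411 with miR-7229-5p, miR-411* with miR-379-3p and miR-376b* with miR-376c-5p. miR-34a shares its own with miR-34b-5p, miR-449a-5p and miR-449c-5p.

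All values are the authors' log2 expression values, and differences are CTNNB1KO_PB minus WT_PB on that scale. Each was tested with limma in a model with 1 mean for each of the 4 groups, and a miRNA passed when its adjusted p over the 611 was under 0.05. The dim floor, 3.98, is the 0.95 quantile of the mean values of 39 viral features on the same arrays, which stand for probes without a target in these livers. The brightest viral feature had a mean of 4.60, so a mean between 3.98 and 4.60 is not clear evidence that a miRNA was present. The dim floor was exceeded by at least 120 mouse miRNAs on each WT_PB array and at least 100 on each CTNNB1KO_PB array. Arrays of the same group correlated at 0.966 to 0.996 across miRNAs. The knockout itself could not be checked, since the array holds no probe for Ctnnb1 mRNA. CTNNB1KO_PB arrays 1 and 2 carried the striated muscle miRNAs miR-1, at 8.17 and 6.03, and miR-133a, at 6.46 and 4.98, against at most 3.68 on the other 6 arrays for either miRNA. In whole liver RNA, fewer cells of a type and less of a miRNA per cell cannot be told apart.

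Under phenobarbital, CTNNB1KO livers had lower values than wild-type livers for 18 of the 77 Dlk1-Dio3 miRNAs, a higher level of miR-34a, and differences in a few other miRNAs, some of them known from epithelial or blood cells. In all, 3 of the 611 miRNAs were higher in CTNNB1KO_PB (0.491% of those tested) and 20 were lower (3.27%), while 85 had an unadjusted p under 0.05, 36 higher and 49 lower. Of the 20 lower miRNAs, 18 were Dlk1-Dio3 members, and the others were miR-689 and miR-144. The higher ones were miR-34a, miR-31* and miR-142-5p. Over all 611 the median difference was 0.02. Counting arrays in place of the test, the 4 arrays of each genotype did not overlap for 27 miRNAs higher in CTNNB1KO_PB (4.42%) and for 43 lower (7.04%).

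**Figure D1:**
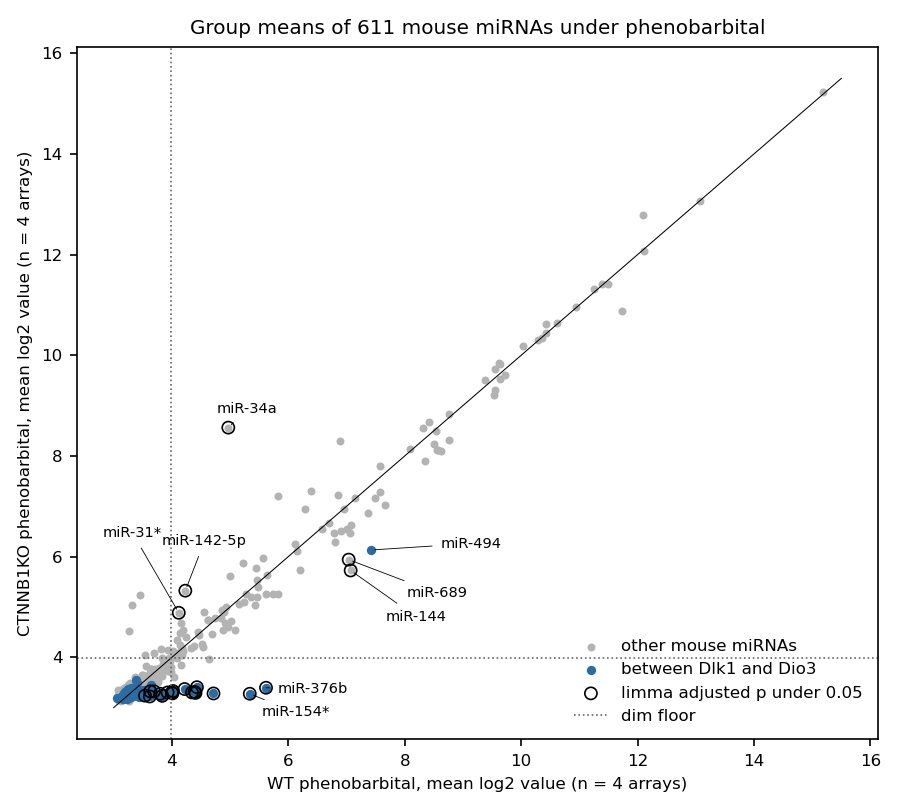
Mean log2 value of each of the 611 mouse miRNAs in WT_PB (x axis) and CTNNB1KO_PB (y axis), 4 arrays each, with Dlk1-Dio3 miRNAs in blue, others in grey, and rings around the 23 that passed. The ringed blue points lie along the bottom, under the dim floor of 3.98 (dotted lines) in CTNNB1KO_PB, and miR-34a is the point far above the diagonal.

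Within the Dlk1-Dio3 region the leading member was miR-376b, a member of the miR-376 family, which in mammals is known for editing of adenosine in its seed. It measured 5.28, 5.70, 5.92 and 5.57 on the WT_PB arrays and 3.47, 3.35, 3.10 and 3.65 on the CTNNB1KO_PB arrays. Each knockout array lay under the dim floor and each wild-type array well over it, with a fitted difference of -2.22 ± 0.15 (SE, limma adjusted p = 6.35e-09), and the level was at least 3.10-fold lower. miR-154* measured 4.43, 5.77, 5.68 and 5.48 against 3.30, 3.30, 3.26 and 3.24, a difference of -2.06 ± 0.20 (adjusted p = 1.35e-06) and at least 2.55-fold lower. WT_PB array 1 was the low one for this miRNA, though still above every knockout array. On the other arm of the same hairpin, miR-154 gave 3.73, 4.35, 4.43 and 4.37 in WT_PB against 3.28 to 3.44, a difference of -0.85 ± 0.14. Here too WT_PB array 1 was lowest, and it lay under the floor.

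The block antisense to Rtl1, a retrotransposon-derived gene read from the paternal chromosome and needed in the mouse placenta, holds miRNAs that are perfectly complementary to the Rtl1 mRNA. Its miR-127 measured 4.11, 4.87, 4.98 and 4.90 in WT_PB and 3.19, 3.31, 3.20 and 3.42 in CTNNB1KO_PB. The groups did not overlap, with a difference of -1.43 ± 0.16 (limma adjusted p = 5.26e-06) and a level at least 1.66-fold lower. miR-136 was lower by -1.02 ± 0.14 on the log2 scale, at least 1.36-fold, and miR-434-3p by -0.70 ± 0.12, at least 1.01-fold. With miR-136*, 4 of the 10 features of the block were lower, against 3.27% of all 611. miR-136* passed at -0.30 ± 0.08, with means under the floor in each group. The remaining 6 of the 10 features of this block did not pass, among them miR-434-5p (-0.36 ± 0.10, adjusted p = 0.0579), the other arm of miR-127, and both arms of miR-431 and miR-433.

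In the long array of hairpins from Mir379 to Mir410, whose host transcript is Mirg, 12 of 52 features were lower, where 3.27% of all 611 were, and 40 did not pass. Besides miR-376b and both arms of miR-154, these were miR-377 (-1.11 ± 0.13), miR-379 (-1.08 ± 0.14), miR-299* (-1.04 ± 0.15), miR-300 (-0.73 ± 0.12), miR-376a (-0.69 ± 0.10), miR-411 (-0.63 ± 0.10), miR-411* (-0.40 ± 0.09), miR-376b* (-0.37 ± 0.10) and miR-541 (-0.30 ± 0.07). The first of the cluster, miR-379, showed 3.79, 4.47, 4.68 and 4.62 in WT_PB and between 3.27 and 3.4 in CTNNB1KO_PB. All 4 wild-type arrays were higher, but array 1 was under the floor. Of those listed, miR-411, miR-411*, miR-376b* and miR-541 had group means under the floor on each side, so no fold is given for them. miR-494, from the same cluster, was above the floor on every one of the 8 arrays, at 7.41, 8.12, 6.80 and 7.33 in WT_PB and 5.11, 6.34, 6.76 and 6.31 in CTNNB1KO_PB. Its groups did not overlap, by a margin of hundredths between WT_PB array 3 and CTNNB1KO_PB array 3, and its difference of -1.28 ± 0.48 did not pass (adjusted p = 0.179).

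Nearest to Dlk1, in the block from Meg3 to Mir665, 2 of 11 features were lower (3.27% of all 611 were), and they were the arms of a single hairpin: miR-337-5p (-0.60 ± 0.09, limma adjusted p = 0.000119) and miR-337-3p (-0.52 ± 0.11, adjusted p = 0.00875). WT_PB measured 3.71, 3.70, 4.05 and 3.88 for miR-337-5p and CTNNB1KO_PB 3.30, 3.12, 3.17 and 3.34. Only WT_PB array 3 reached the floor. None of the 4 features from Mir341 to Mir882, in the part that Rian covers, passed, and their differences ran from -0.20 to -0.01. The 18 members that passed thus came from 13 of the 53 hairpins on the array and from positions 5 to 55 of the 61 miRNA genes that RefSeq lists in the region. Both arms were measured for 24 hairpins: both passed in 5 of them, a single arm in 5 and neither in 14.

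**Figure D2:**
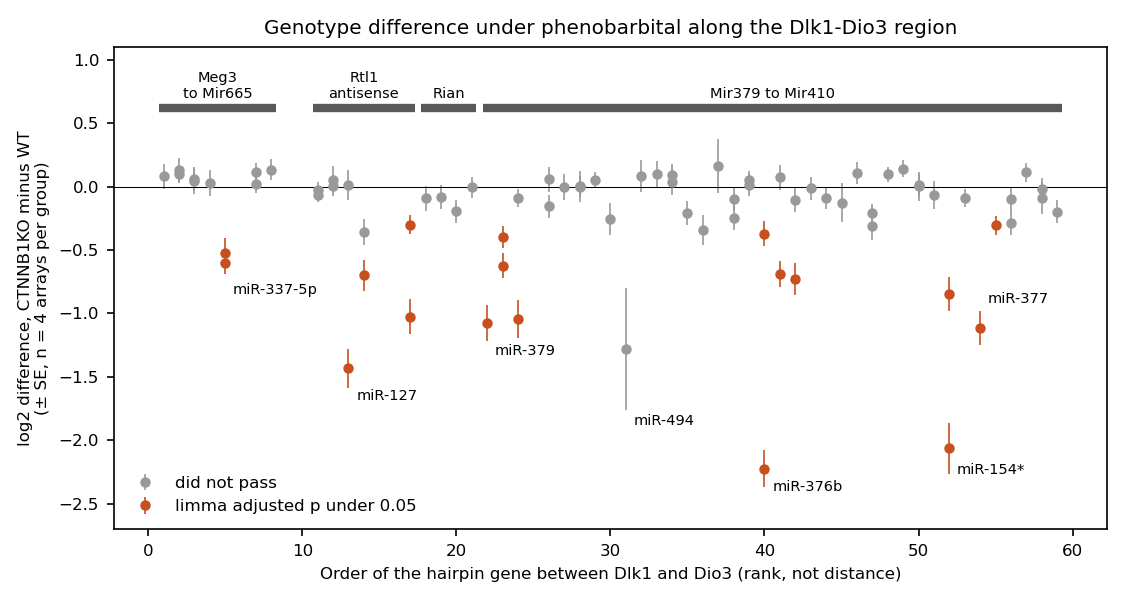
Difference in log2 value, CTNNB1KO_PB minus WT_PB, with its SE (n = 4 arrays per group) for the 77 Dlk1-Dio3 features, placed by the rank of the hairpin gene between Dlk1 and Dio3. The 18 orange points passed and lie between -2.22 (miR-376b) and -0.30 (miR-136*), scattered along the region among grey neighbours near 0.

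Every one of the 18 lay under the dim floor on all 4 CTNNB1KO_PB arrays, where no value exceeded 3.66, and none had overlapping groups. As the 18 were chosen by a test of the same arrays, this adds no support. Of all 77 region features, 22 were lower without overlap, against 7.04% of the 611, and 1 had a CTNNB1KO_PB mean above the floor. In WT_PB the mean was above the floor for 11 and not for 7. Of these 11, only miR-376b (5.62), miR-154* (5.34) and miR-127 (4.71) exceeded the brightest viral mean of 4.60. Of the 59 features of the region that did not pass, miR-494 alone had a WT_PB mean above the floor, 29 differences were negative and 30 positive, and the range was -1.28 to 0.16. The median difference over all 77 was -0.09, against 0.02 over the 611 and 0.02 over the 534 features elsewhere. The choice of these 77 by position used no measured value, but the region was known from earlier results of these arrays.

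The wild-type arrays moved together across the region. WT_PB array 1 was the lowest of its group for 14 of the 18 members, array 2 for 3 and array 3 for 1. Averaged over the 18, WT_PB arrays 1 to 4 stood at 3.85, 4.27, 4.38 and 4.29, and the CTNNB1KO_PB arrays at 3.31, 3.31, 3.27 and 3.32. The knockout arrays lay close together, near the viral median of 3.23, so differences among them could hardly be read. The part of muscle or leukocyte content in the region difference was not tested. The region calls were 15 to 19 over all omissions of a single array, 16 without CTNNB1KO_PB arrays 3 and 4, and 13 without arrays 1 and 2.

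**Figure D3:**
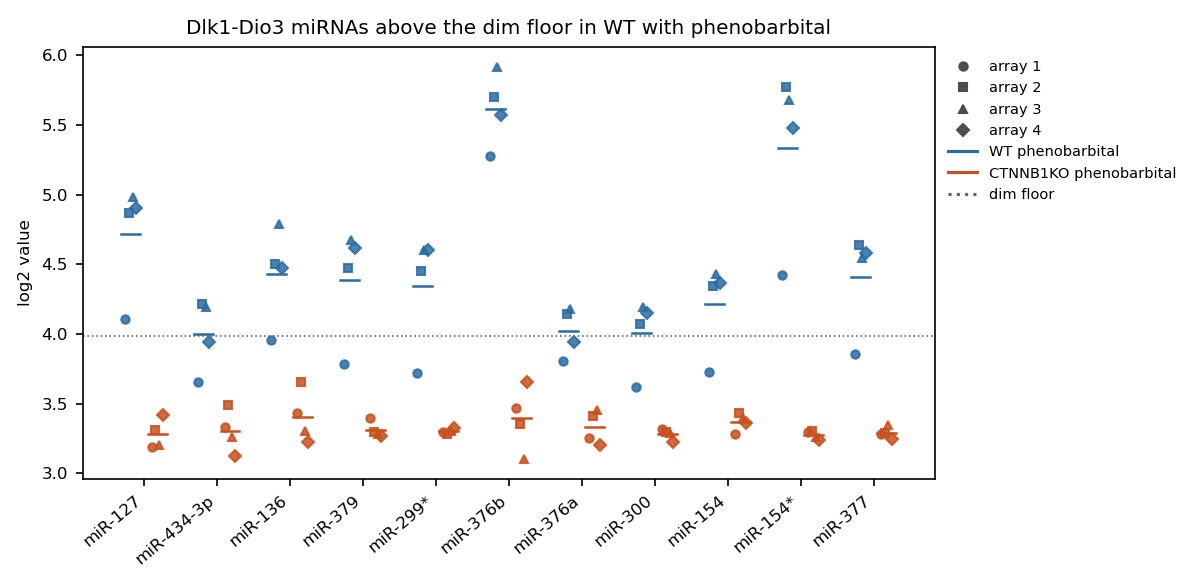
Log2 values on each array for the 11 Dlk1-Dio3 miRNAs that passed and whose WT_PB mean was above the dim floor (dotted line, 3.98), in genomic order. WT_PB arrays are blue and CTNNB1KO_PB arrays orange, with bars at the group means, and WT_PB array 1 (circles) is the lowest blue point for each of these miRNAs.

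The same genotype difference was tested against that in mice without phenobarbital. In controls none of the 77 region features passed between genotypes: for the 18 above, the control difference lay between -0.34 and 0.08, with no adjusted p under 0.548. Their means were 3.24 to 3.67 in WT_H2O and from 3.19 upwards in CTNNB1KO_H2O, all under the floor. A genotype difference in controls could therefore hardly be read, which limits the test between diets. The genotype difference was larger with phenobarbital than without for 7 miRNAs by limma (1.15% of the 611, all in the negative direction), and all 7 were among the 18: miR-376b (-2.0 ± 0.21, adjusted p = 9.84e-06), miR-154* (-1.84 ± 0.28), miR-127 (-1.20 ± 0.22), miR-379 (-1.05 ± 0.20), miR-377 (-0.95 ± 0.19), miR-376a (-0.62 ± 0.14) and miR-411 (-0.61 ± 0.14). The other 11 did not pass this test, miR-337-5p (adjusted p = 0.0565) and miR-300 (0.0587) coming closest. The count was 13 without WT_PB array 1, at least 5 in each other omission of a single array, and 2 without moderation.

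Outside the region, miR-34a differed most. It is a direct transcriptional target of p53 and represses cell-cycle and anti-apoptotic genes. miR-34a stood at 4.97, 5.08, 4.93 and 4.89 in WT_PB and at 7.96, 8.06, 9.49 and 8.75 in CTNNB1KO_PB. All arrays were above the floor, the groups were far apart, and the knockout arrays spread over more than a log2 unit while the wild-type arrays nearly coincided. The difference was 3.59 ± 0.48 (95% interval 2.58 to 4.61, limma adjusted p = 5.36e-05), or 12.1-fold on the scale of the array. Its SE came from a spread pooled over 4 unequal groups. In controls the difference was 2.25, but it was uneven. The CTNNB1KO_H2O arrays measured 6.65, 9.41, 6.35 and 6.42, with array 2 far above the rest, against 4.73 to 5.11 in WT_H2O. The increase with phenobarbital of 1.34 ± 0.68 did not pass (limma adjusted p = 0.608). That array entered both the control mean and the spread of this test, which does not show that the difference was alike on both diets. The other 7 measured members of the family, from miR-34b, miR-34c and miR-449, were under the floor and did not pass, with differences from -0.08 to 0.14.

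miR-31* is the passenger arm of miR-31, a miRNA known from epithelia, and the hairpin was higher on each arm. miR-31* measured 4.24, 3.97, 4.17 and 4.10 in WT_PB and 5.33, 5.0, 4.89 and 4.32 in CTNNB1KO_PB, a difference of 0.77 ± 0.17 (limma adjusted p = 0.00962). miR-31 measured 6.75, 6.14, 6.36 and 6.30 against 7.61, 7.57, 6.93 and 7.09, or 0.91 ± 0.26, which missed the threshold (adjusted p = 0.0555). In controls miR-31* differed by 1.05 (adjusted p = 0.00226), and the change between diets did not pass (adjusted p = 0.876). In both arms all knockout arrays were above all wild-type arrays, with knockout arrays 1 and 2 at the top. Of the other 15 measured biliary or epithelial miRNAs none passed, where only 0.491% of all 611 passed as higher and 3.27% as lower. In all, 12 of the 17 were under the floor, among them miR-141, miR-200c, miR-429, miR-375 and miR-205. miR-200b differed by 0.17 ± 0.17, and the median over the list was 0.10. The call of miR-31* ended without CTNNB1KO_PB arrays 1 and 2.

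Among miRNAs of leukocytes, miR-142-5p was higher in CTNNB1KO_PB. It and miR-142-3p come from a hairpin that marks blood cells, and miR-223 is a miRNA of the myeloid lineage. miR-142-5p measured 4.38, 3.95, 4.28 and 4.32 in WT_PB and 4.63, 4.75, 5.92 and 5.99 in CTNNB1KO_PB, a difference of 1.09 ± 0.28 (limma adjusted p = 0.0267). Knockout arrays 3 and 4 stood more than a log2 unit above arrays 1 and 2, which were themselves just above the wild-type arrays. The same division was seen for miR-142-3p, at 7.28, 7.88, 9.05 and 8.99 against 6.73 to 7.15 in WT_PB (1.42 ± 0.43, adjusted p = 0.0829), and for miR-223, at 6.14, 6.61, 7.88 and 8.18 against 5.50 to 6.15 (1.38 ± 0.44, adjusted p = 0.0975). Without knockout arrays 3 and 4 miR-142-5p did not pass, and its call also ended in 5 of the 16 omissions of a single array, with the 8 phenobarbital arrays alone (adjusted p = 0.0602), without moderation (0.105) and with quantile normalization (0.076). With those 8 arrays alone miR-142-3p (adjusted p = 0.0364), miR-31 (0.0221) and miR-451 (0.0337) passed. Of the 10 leukocyte markers, 1 was called higher (0.491% of all 611 were), 9 differences were positive (344 of the 611 were) and 5 markers, miR-150 (0.19 ± 0.09) and miR-155 among them, were under the floor. miR-146a differed by 0.62 ± 0.27. The median difference was 0.37, and the log2 of the summed level of the list was 7.98 to 8.35 in WT_PB and 8.47 to 9.96 in CTNNB1KO_PB.

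Red-cell miRNAs went the other way. miR-144 and miR-451 are processed from a shared erythroid transcript, the latter by Argonaute 2 without Dicer. miR-144 measured 7.09, 6.84, 7.04 and 7.31 in WT_PB and 6.76, 6.13, 4.91 and 5.10 in CTNNB1KO_PB, a difference of -1.35 ± 0.32 (limma adjusted p = 0.0174). miR-451 measured 11.83, 11.53, 11.48 and 12.10 against 11.37, 10.92, 10.24 and 10.97, or -0.86 ± 0.26, which missed the threshold (adjusted p = 0.0829). Neither overlapped between groups, where 7.04% of all 611 were lower without overlap, and 14.4% of those outside the region and above the floor. For miR-144 knockout arrays 3 and 4, those with the most leukocyte miRNA, were the low ones. The brighter miR-451 did not follow this, as its array 4 was just above array 2. In controls the differences were larger and passed, at -1.84 (adjusted p = 0.00378) for miR-144 and -1.78 (adjusted p = 0.00128) for miR-451, and the change between diets passed for neither (limma adjusted p = 0.876 and 0.374). The third marker, miR-486, differed by -0.30 ± 0.20 with overlapping groups, and its sign turned without knockout arrays 3 and 4. The call of miR-144 ended without CTNNB1KO_PB arrays 3 and 4, and in 3 of the 16 omissions of a single array.

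**Figure D4:**
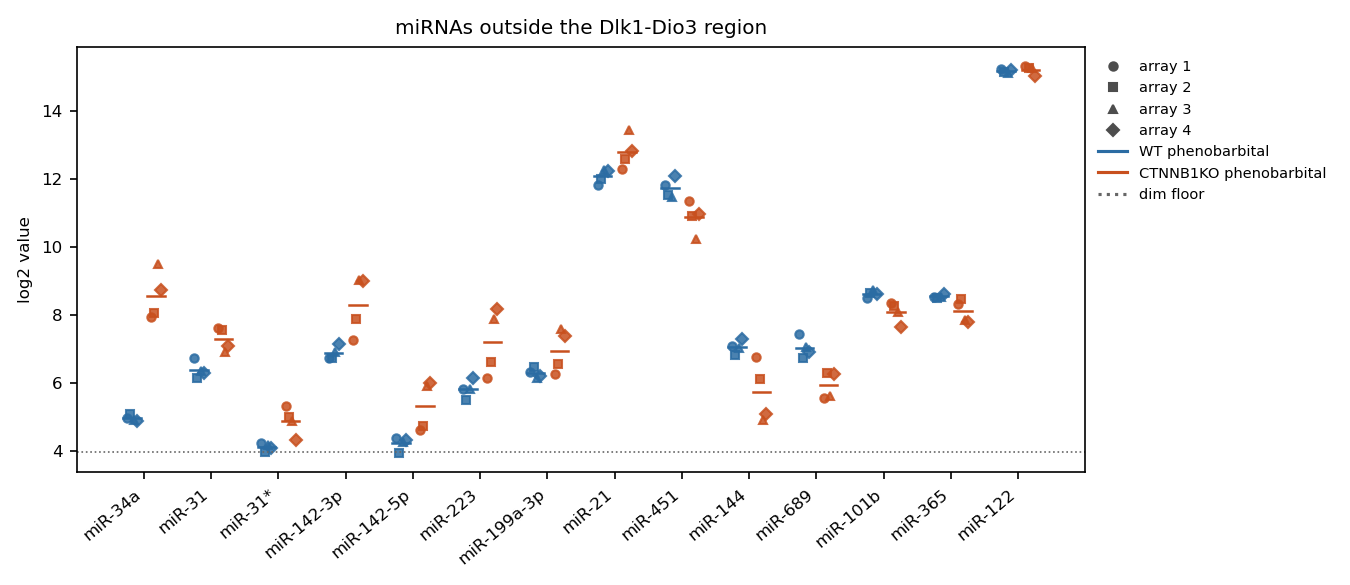
Log2 values on each array for 14 miRNAs outside the Dlk1-Dio3 region, blue for WT_PB and orange for CTNNB1KO_PB, with bars at the group means and the dim floor of 3.98 dotted. miR-34a separates the groups furthest, and for the miR-142 arms and miR-223 the knockout arrays 3 and 4 (triangle and diamond) lie above arrays 1 and 2 (circle and square).

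None of the 13 measured stellate or mesenchymal miRNAs passed, where only 0.491% of all 611 passed as higher and 3.27% as lower. Closest was miR-199b*, at 4.20, 4.26, 4.15 and 4.04 in WT_PB and 4.43, 4.64, 5.16 and 4.48 in CTNNB1KO_PB (0.51 ± 0.16, limma adjusted p = 0.0829), a product of the miR-199 family that is enriched in fibroblast-like cells. Its groups did not overlap. miR-199a-3p measured 6.28, 6.55, 7.60 and 7.39 in CTNNB1KO_PB against 6.15 to 6.47 in WT_PB (0.67 ± 0.28, adjusted p = 0.276), so that knockout arrays 3 and 4 again stood above arrays 1 and 2. The smooth muscle miRNA miR-143 differed by -0.01 ± 0.27, a sign that several alternatives turned, and 7 of the 13, miR-145 and miR-10b among them, were under the floor. miR-214 differed by 0.35 ± 0.17. The endothelial miR-126-3p, at 10.01 to 10.06 in WT_PB and up to 10.42 in CTNNB1KO_PB, differed by 0.14 ± 0.10 (95% interval -0.08 to 0.36). The summed level of the stellate list was 7.89 to 8.09 in WT_PB and 8.06 to 8.71 in CTNNB1KO_PB on the log2 scale.

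Of the 15 hepatocyte miRNAs, none passed in either direction, where only 0.491% of all 611 passed as higher and 3.27% as lower. In this list 11 differences were negative and 4 positive (over all 611, 267 and 344), and miR-215 and miR-455* were under the floor. The largest difference was that of miR-455, at -0.68 ± 0.26 (limma adjusted p = 0.185), with overlapping groups, and miR-193 differed by -0.39 ± 0.19. miR-122, which makes up most of the miRNA of hepatocytes, measured 15.25, 15.17, 15.13 and 15.21 in WT_PB and 15.33, 15.26, 15.28 and 15.05 in CTNNB1KO_PB. It was the brightest miRNA on all 16 arrays, and the 4 WT_H2O arrays and CTNNB1KO_PB array 3 carried an identical value. Whether values at this end of the scale follow the level of the miRNA was not tested, and no difference between genotypes is read from them. miR-192 and miR-194, which share transcripts and depend on HNF factors, differed by -0.08 ± 0.08 (95% interval -0.24 to 0.08) and -0.31 ± 0.15 (-0.64 to 0.01). miR-802, known from glucose control in mouse liver, differed by -0.01 ± 0.23 (-0.49 to 0.47), with a sign that changed between alternatives. miR-148a differed by 0.21 ± 0.09 and miR-101a by -0.26 ± 0.19, the latter with its sign turned without knockout arrays 3 and 4.

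Of these, miR-101b and miR-365, both above the floor, and miR-455*, under it, had separate groups, 3 of the 15 and all lower. Over all 611, 7.04% were lower without overlap, and 14.4% of those outside the region and above the floor. miR-101b measured 8.50, 8.66, 8.73 and 8.62 in WT_PB and 8.35, 8.28, 8.10 and 7.65 in CTNNB1KO_PB (-0.53 ± 0.17, limma adjusted p = 0.0875), and miR-365 measured 8.55, 8.51, 8.54 and 8.61 against 8.34, 8.48, 7.86 and 7.79 (-0.44 ± 0.17, adjusted p = 0.218). In each, knockout arrays 3 and 4 were the low ones. CTNNB1KO_PB array 4 was the lowest knockout array for 10 of the 13 hepatocyte miRNAs above the floor and for 70 of the 125 such miRNAs outside the region. The summed level of the hepatocyte list was 15.52 to 15.61 in WT_PB and 15.40 to 15.68 in CTNNB1KO_PB on the log2 scale, a sum that is mostly miR-122. The mean log2 value of the list, in which each member counts alike, was 7.96 to 7.99 in WT_PB and 7.95, 7.98, 7.67 and 7.62 on CTNNB1KO_PB arrays 1 to 4, so arrays 3 and 4 were low. The median difference was -0.08. Knockout arrays 3 and 4 had higher values than arrays 1 and 2 for both arms of miR-142 and for miR-146a, miR-199a-3p and miR-223. The same held for miR-34a and miR-21. Lower values on arrays 3 and 4 were seen for miR-144, miR-101b and miR-365. But array 4 was below array 2 for miR-199b*, miR-150 and miR-155, and above it for miR-451. The part of these cell types in any of the genotype differences was not tested.

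**Figure D5:**
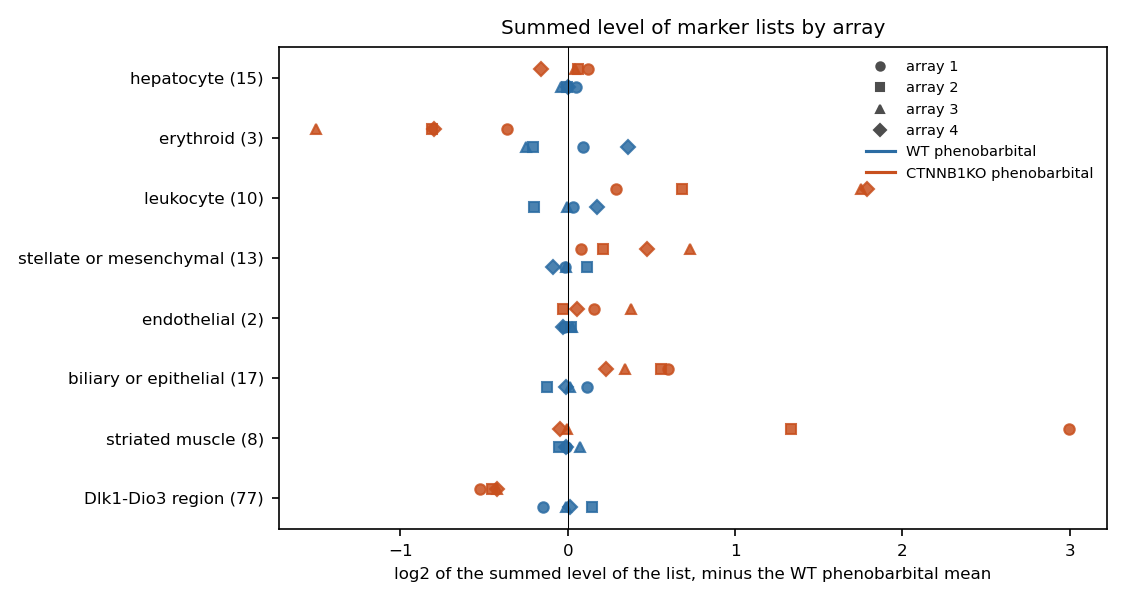
Log2 of the summed level of each marker list on each array, minus the WT_PB mean of that list, with the number of measured members in brackets. Blue is WT_PB and orange CTNNB1KO_PB. The sums of the leukocyte, erythroid and biliary or epithelial lists and of the Dlk1-Dio3 region lie apart by genotype. Their brightest members, which weigh most in each sum, are miR-142-3p, miR-451, miR-31 and miR-494 in that order. None of these passed, so the sums do not stand for a shift of whole lists. The muscle list is high on CTNNB1KO_PB arrays 1 and 2 alone, and the hepatocyte sum, which is mostly miR-122, stays close to 0.

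miR-689, a feature of the array design for which no function is given here, was lower in CTNNB1KO_PB. It measured 7.44, 6.74, 7.07 and 6.91 in WT_PB and 5.55, 6.30, 5.63 and 6.28 in CTNNB1KO_PB, a difference of -1.10 ± 0.25 (limma adjusted p = 0.0103), with all arrays above the floor and no overlap. In controls its difference was -0.14, and the change between diets did not pass (adjusted p = 0.301).

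Separate groups were also seen for miRNAs that did not pass over the 611. Among the 125 features outside the region that were above the floor in either group, the groups did not overlap for 18 that were lower in CTNNB1KO_PB (14.4% of the 125, against 7.04% of all 611) and 13 that were higher (10.4%, against 4.42%), counts that include the 5 that passed. Among the lower ones that did not pass were miR-23b, at 8.73 to 8.82 in WT_PB against 8.12 to 8.52 (-0.44 ± 0.14, limma adjusted p = 0.0831), miR-30d (-0.51 ± 0.16, adjusted p = 0.0829), miR-92a (-0.62 ± 0.19, adjusted p = 0.0831) and miR-25 (-0.37 ± 0.12, adjusted p = 0.0982). Singled out after their values were seen, miR-27b, which is made from the transcript of miR-23b, differed by -0.59 ± 0.20, and the near-identical miR-103 and miR-107 by -0.45 ± 0.15 and -0.44 ± 0.15. miR-23a, whose mature sequence is almost that of miR-23b and whose signal on an array cannot be fully separated from it, differed by 0.27 ± 0.18. When the test was run only on the miRNAs above the floor in some group, 24 outside the region passed in place of 5, among them miR-23b, miR-30d, miR-92a, miR-25, miR-27b, miR-103, miR-107 and miR-101b, all lower, and miR-31, miR-142-3p, miR-223 and miR-199b*, all higher.

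Of the miRNAs tied to tumour promotion and proliferation, none passed, where only 0.491% of all 611 passed as higher and 3.27% as lower. miR-21, which is high in regenerating and tumour-bearing liver, measured 11.84, 12.02, 12.26 and 12.23 in WT_PB and 12.30, 12.59, 13.45 and 12.82 in CTNNB1KO_PB. Each knockout array was above each wild-type array, the nearest pair nearly touching, and the difference was 0.70 ± 0.28 (95% interval 0.12 to 1.29, limma adjusted p = 0.218). miR-221, a repressor of the cell-cycle inhibitor p27, differed by -0.16 ± 0.13, and miR-222, under the floor, by -0.04 ± 0.10 with a sign that some alternatives turned. Of the 5 miRNAs of the Mcm7 host gene, 4 differences were negative and 1 was positive, with miR-25 given above the largest. The 3 exocrine pancreas miRNAs were all under the floor, as were 9 of the 10 neural ones, and none of either list passed.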

How the data were processed

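Liver miRNAs of 16 samples, 4 in each of 4 groups taken from the sample titles, were measured from total RNA labelled with an Agilent miRNA kit, per the labels' protocols. The authors deposited log2 expression values in 1 table. The submitters' processing notes name RMA and limma without versions, and other settings are not stated there, so a shift shared by most miRNAs may have been removed. Detection calls, scanner intensities and slides were not used here, and the number of arrays sets the precision.

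All 611 mouse features on 16 arrays entered 1 model holding a mean for each group (limma 3.58.1, R 4.3.3, 12 residual degrees of freedom, eBayes with intensity trend, two-sided, Benjamini-Hochberg over 611, threshold 0.05). Its spread is pooled over groups that differ in spread. A fold is given as a lower bound, brighter mean over the dim floor of 3.98, where every array of the dimmer group was at or under it. This bound takes the brighter mean as measured, without its error. Summed levels are the log2 of the sum of linear values. Region features were assigned by matching names to hairpin genes in RefSeq gene order (GRCm38.p6), which matched 577 of 611 features, and arms of older names were assigned by hand.

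The text names every miRNA that passed, a fixed panel of 33, and the 4 smallest unadjusted p-values per direction outside the region and above the floor that did not pass. Members and lists were chosen with earlier results of these data known. The procedure was tested on simulated data. Alternatives changed the arrays fitted, moderation, array weights, scaling, floor filter, features and replicate block, and left out each array in turn. No pairing by replicate number was visible: deviations of same-numbered WT_PB and CTNNB1KO_PB arrays correlated between -0.163 and 0.177. So few arrays cannot exclude a pairing.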

Additional observations from a re-analysis of the deposited data

Results flagged for a closer look

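In 136 groups of 4 values (56 named miRNAs and 12 marker lists, in WT_PB and CTNNB1KO_PB), an array stood apart from the other 3 by Dixon's ratio in 9, where chance gives about 1 in 20. Of these, 4 were the low Dlk1-Dio3 values of WT_PB array 1: miR-127 at 4.11, miR-377 at 3.86, miR-299* at 3.72 and miR-154 at 3.73. The others were miR-192 at 11.39 and miR-23b at 8.82 on WT_PB array 4, miR-200b at 4.42 on CTNNB1KO_PB array 3, miR-92a at 7.55 on CTNNB1KO_PB array 1, and the summed level of the neural list at 6.71 on CTNNB1KO_PB array 4.

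The difference between genotypes itself differed between phenobarbital and control diet, by the limma test of that difference, for miR-376b (-2.0), miR-154* (-1.84), miR-127 (-1.20), miR-379 (-1.05), miR-377 (-0.95), miR-376a (-0.62) and miR-411 (-0.61), all log2 values. For all of them the control means were under the dim floor in both genotypes, so a genotype difference there could hardly be read.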

How the results depend on the processing

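Of the 23 miRNAs that passed, 18 (15 from the Dlk1-Dio3 region, with miR-34a, miR-31* and miR-689) passed in each of the 16 omissions of a single array. Under every setting run, 13 passed. The floor filter left 7 of the 23 untested, and these count as lost there. For miR-337-5p and miR-411 that was the only loss. In these omissions 2 to 7 miRNAs were higher, 16 to 27 lower, 15 to 19 region members lower, 3 to 16 passed outside the region and 5 to 13 passed the test between diets. Without CTNNB1KO_H2O replicate 2, which enters the pooled spread only, there were 7 higher and 16 outside, without CTNNB1KO_PB replicate 1 7 higher and 14 outside, without CTNNB1KO_PB replicate 4 6 higher, without WT_PB replicate 4 3 outside, and without WT_PB replicate 1 13 between diets. With array weights 15 were higher, 34 lower, 25 outside and 20 between diets. Without the intensity trend 10 passed outside and with robust eBayes 9, while without moderation 2 passed between diets. Among miRNAs above the floor alone, where fewer were tested, 10 were higher, 11 region members lower and 24 outside. Those 11 entered this fit only through their WT_PB means, the group where they are high, so their count adds no support. Without CTNNB1KO_PB arrays 1 and 2, chosen with the data known, 11 were higher and 27 outside, and without arrays 3 and 4 9 were higher and 10 outside. The cause was not tested.

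With the replicate number as a block, 4 were higher and 19 lower (17 in the region), and 1 of 4 CTNNB1KO_PB arrays correlated best with its own number. Signs turned, for miRNAs that did not pass, as follows. miR-802 was 0.067 with array weights, 0.085 with quantile normalization, 0.13 without CTNNB1KO_PB arrays 3 and 4, and -0.12 to 0.062 over omissions of a single array. miR-143 was 0.30, 0.11 and 0.33 in the same settings and -0.18 to 0.30 over the omissions. miR-222 was 0.0013 with array weights and -0.083 to 0.015 over the omissions. Without CTNNB1KO_PB arrays 1 and 2, miR-122 was -0.022 and miR-1 was -0.060. Without arrays 3 and 4, miR-101a was 0.049 and miR-486 was 0.014. With the 8 phenobarbital arrays alone, the test between diets could not be run. Median centring and adding the viral features changed no count of calls between genotypes. With no detection calls, values near the floor limit what can be said of most region members.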
